A study of Mus musculus with 8 samples.

Results

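The effect of losing WDR68 on undifferentiated cells was measured by comparing 2 RNA sequencing libraries of Wdr68 knockout embryonic stem cells (ESC) with 2 libraries of wild-type E14 ESC, a mouse embryonic stem cell line. The genes described are those with an FPKM (sequenced fragments divided by transcript length in kilobases and by library depth) of at least 1 in at least 2 of these 4 libraries. They number 11085 of the 24306 gene symbols in the tables. Both genotypes were grown in serum medium with LIF and inhibitors of Mek and GSK3 (PD0325901 and CHIR99021), on feeder fibroblasts or on gelatin, and the labels do not say which surface each library came from. They also do not say how the knockout was made, whether it is 1 clone, or whether the duplicates were separate cultures. A p-value here takes its error from the spread between duplicates over all 8 libraries of the series, with variances moderated across genes. That spread is possibly technical, and a property of the clone cannot be told apart from the genotype. In the other 4 libraries of the series, neural progenitor cells (NPC) of both genotypes had been made from such ESC through embryoid bodies and retinoic acid.

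WDR68, listed in the tables by its gene name Dcaf7, is a WD40-repeat protein without known enzyme activity that serves as a docking platform. It binds kinases of the DYRK and HIPK families, was named as a substrate receptor candidate of the CUL4-DDB1 ubiquitin ligase, and is a subunit of the Polycomb repressive complex 1 (PRC1) variant that holds AUTS2. Most PRC1 complexes silence developmental genes, whereas the AUTS2 variant has been linked to active genes in the nervous system. The series asks about WDR68 in that activating role and in differentiation, and the undifferentiated cells show what differs before it starts.

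The error intervals of the tables implied 6400749 to 7801143 fragments in each of the 4 ESC libraries, and the median gene at an FPKM of 1 had 22.8 to 28.0 of them. The pair of wild-type libraries differed by a median of 0.129 on the log2 scale over the 11085 genes, as did the pair of knockout libraries. The 4 pairs of a wild-type with a knockout library differed by 0.143 to 0.176. The share of small RNA genes in the summed FPKM was 32.5% to 41.4%, and ribosomal protein genes took 22.2% and 23.6% of the rest in wild type and 24.3% and 25.5% in knockout.

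The RNA of Dcaf7 itself was lower in the knockout and was not lost, while the level of its protein cannot be read from these libraries. The gene lies at chr11:105898186-105920637 (mm9). Its FPKM was 12.4 and 14.2 in the wild-type ESC libraries and 2.80 and 2.26 in the knockout ESC libraries. Both knockout libraries were far below both wild-type libraries, a 5.27-fold lower mean and a log2 change of FPKM + 1 of -2.02 ± 0.12 (standard error from limma, adjusted p = 0.0011). Every change below is a log2 change of FPKM + 1 in knockout minus wild type with this kind of error, which understates the change of genes at low FPKM. Leaving out any of the 4 ESC libraries gave an adjusted p of 0.00561 to 0.0161 for Dcaf7. Of the 10 genes of the comparison within 200 kb of Dcaf7, itself included, no other passed. The neighbours changed by -0.15 (Ddx42) to 0.18 (Taco1).

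Genes for partners of WDR68 did not pass in either direction. None of the 13 genes of the PRC1-AUTS2 complex passed, and their median change was -0.042 against -0.013 for all 11085 genes. Auts2 stood at 1.71 and 1.30 FPKM in wild type and 1.76 and 1.74 in knockout (0.14 ± 0.12, adjusted p = 0.679), so its RNA was near the lower limit of the comparison in both genotypes. Rnf2, the catalytic ubiquitin ligase subunit of PRC1, was at 53 and 50.5 in wild type and 48.9 in each knockout library (-0.08 ± 0.06, adjusted p = 0.635). Pcgf3 and Pcgf5 encode the RING-finger partners that define this variant. Pcgf3 changed by 0.18 ± 0.11 and Pcgf5 by -0.55 ± 0.28 (adjusted p = 0.529 and 0.467). In neither gene did the groups overlap. Pcgf5 was at 4.01 and 4.31 FPKM in wild type and 2.64 and 2.40 in knockout. Its error includes the wild-type NPC libraries, where Pcgf5 was at 2.09 and 0.672. A limma fit of only the ESC libraries did not pass Pcgf5 either (adjusted p = 0.356, and 0.277 over the 11085 genes alone). None of 20 other PRC1 genes and none of 10 PRC2 genes passed, with medians of -0.108 and -0.090. The list of WDR68-binding kinases with the CUL4 ligase had 0 called genes of 12 (median -0.083). Its lowest adjusted p was that of Cul4b (71.3 and 67.6 FPKM against 59.4 and 55.1, adjusted p = 0.214).

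Few genes passed in the comparison as a whole. At a Benjamini-Hochberg adjusted p under 0.05 with limma, 33 of the 11085 genes were called (0.298%), 17 higher (0.153%) and 16 lower (0.144%) in knockout. Of these, 7 are genes of microRNAs or small nucleolar RNAs, and 26 are longer genes, 12 higher and 14 lower. In all 33 the groups did not overlap, which was also so for 20.9% of all members in the higher and 26.1% in the lower direction. An unadjusted p under 0.05 was reached by 1597 genes (14.4%), 701 higher (6.32%) and 896 lower (8.08%). A change of at least 1 on the log2 scale was seen in 93 genes, of which 19 were called, and 45 of the 74 others were small RNA genes. A fit of only the 4 ESC libraries passed none of the 26 longer genes, with an adjusted p of 0.270 for both Dcaf7 and Slc25a4. Over the 11085 genes alone, chosen after seeing the data, that fit passed 7 of the 26, among them Dcaf7 (0.00964) and Slc25a4 (0.0229). Calls mostly needed all libraries, since 2 of the 26 longer genes (Dcaf7 and Slc25a4) passed whichever ESC library was left out, and 19 of them passed in none of these 4 fits. Among the exceptions in between, Peg10 passed without either wild-type library, Sgce without either knockout library, and Gstp1 and Gstp2 without knockout replicate 2.

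**Figure D1:**
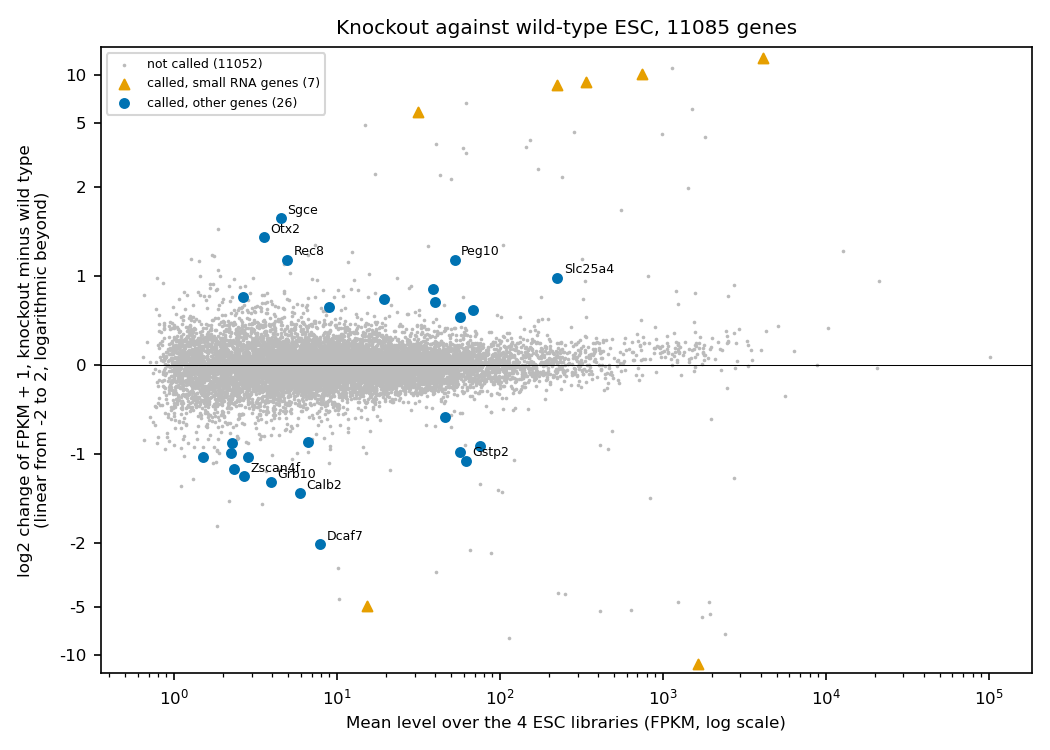
Log2 change of FPKM + 1 (knockout minus wild-type ESC) against the mean FPKM over the 4 ESC libraries for each of the 11085 genes. Blue points are the 26 called genes that are not small RNA genes and orange triangles are the 7 called small RNA genes, which lie far outside the cloud. The vertical axis is linear between -2 and 2 and logarithmic beyond.

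**Figure D2:**
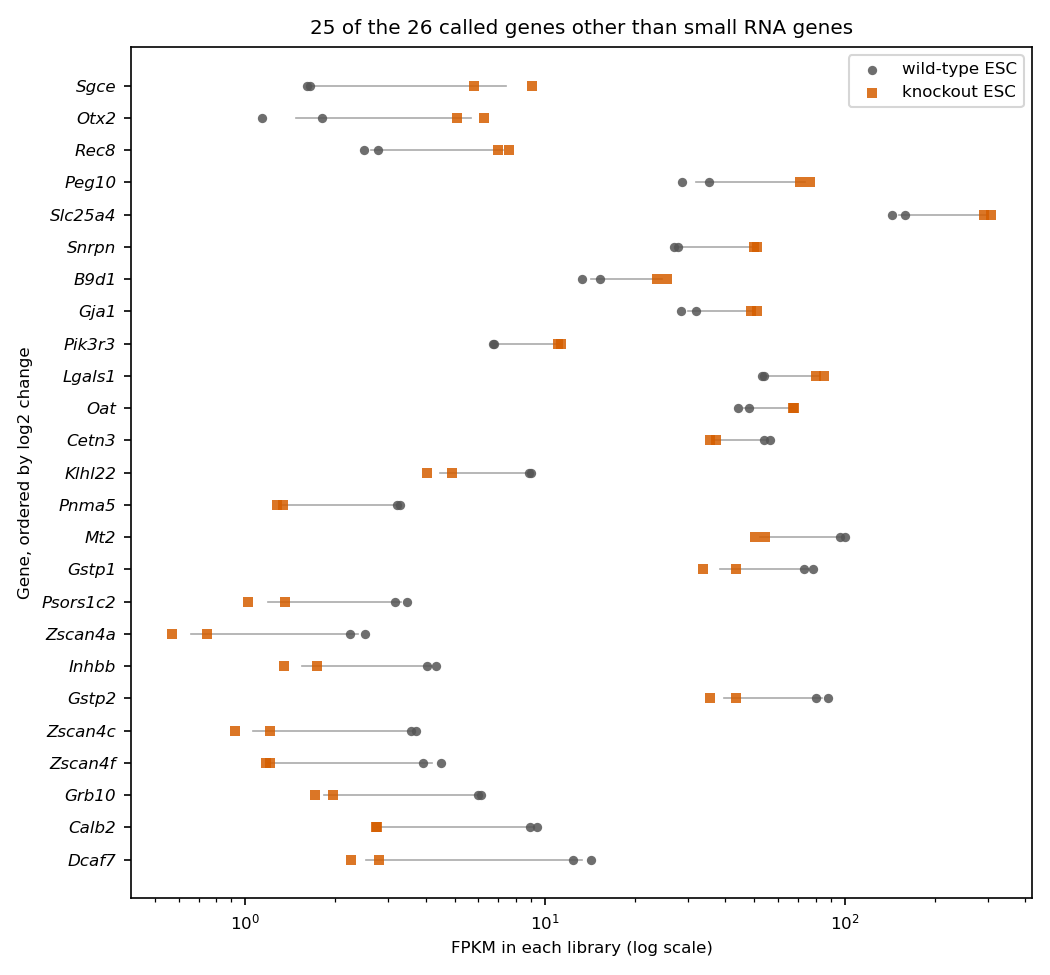
FPKM in each of the 4 ESC libraries (log axis) of 25 of the 26 called genes other than small RNA genes, with grey circles for the wild-type and orange squares for the knockout libraries and a line between the group means. In each gene shown the circles and the squares do not overlap. Levels span from under 1 FPKM for Zscan4a in knockout to about 300 FPKM for Slc25a4.

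Imprinted genes are expressed from the allele of a single parent. The lists of them held 20 paternally and 18 maternally expressed genes of the 11085, and made up 4 of the 26. Known kinds of control for such clusters are DNA methylation inherited from the germ cells, long noncoding RNAs and Polycomb proteins. Which allele the RNA came from was not analysed. Of 20 paternally expressed genes in the comparison, 3 rose, none fell and 17 did not pass. In 13 of the 20 both knockout libraries lay above both wild-type libraries and in 4 below. Over all 11085 genes, 20.9% lay above and 26.1% below in this way. Of the 20, 11 had an unadjusted p under 0.05 in the higher and 2 in the lower direction, beside 6.32% and 8.08% of all genes. The median change of the list was 0.296, with 0.291 and 0.336 in the separate knockout libraries, beside -0.013 for all genes. Earlier results of these data had already shown the rise of imprinted genes, so these counts are a description.

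Peg10 and Sgce are paternally expressed neighbours on chromosome 6 that are read in opposite directions, and 102 bases lie between them in the tables (Sgce at chr6:4624350-4697204, Peg10 at chr6:4697306-4710516, mm9). Peg10 derives from a retrotransposon and is needed in the placenta. Its FPKM was 35.3 and 28.7 in wild type and 76.7 and 70.8 in knockout, a 2.30-fold higher mean (1.19 ± 0.11, adjusted p = 0.0106). Without knockout replicate 1 or 2 the adjusted p was 0.0863 or 0.0744. Sgce, which encodes a sarcoglycan of the muscle and brain cell membrane, was at 1.65 and 1.61 in wild type and 5.79 and 9.04 in knockout (1.65 ± 0.17, adjusted p = 0.0214). Its 2 knockout libraries were further apart than its wild-type libraries, and without wild-type replicate 1 or 2 the adjusted p was 0.146 or 0.145. The next genes on either side did not pass, with 0.15 for Casd1 and 0.25 for Ppp1r9a (adjusted p = 0.616 and 0.484).

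Snrpn, a paternally expressed gene of the Prader-Willi region that encodes a spliceosome protein, was at 27.0 and 27.9 in wild type and 51.0 and 49.9 in knockout (0.86 ± 0.08, adjusted p = 0.0106). The 2 libraries of each genotype were almost equal, and the knockout mean was 1.84-fold higher. Fits without any of the 4 libraries in turn gave an adjusted p of 0.0825 to 0.105. The noncoding host gene downstream of it, Snhg14, had 9.07 and 9.60 in wild type and 18.6 and 16.5 in knockout but did not pass (0.84 ± 0.12, adjusted p = 0.0704). Snurf overlaps Snrpn in the tables, so reads could be split between them, and it changed by 0.43 (adjusted p = 0.221). Paternally expressed genes above wild type that did not pass included Sfmbt2 (3.42 and 3.48 against 7.23 and 5.72, 0.74), Plagl1 (31.4 and 30.2 against 53.5 and 46.3, 0.68) and Peg3 (2.79 and 2.76 against 5.26 and 4.09, 0.58). Their adjusted p-values were 0.111, 0.111 and 0.176. The 4 genes of the list with both knockout libraries below both wild-type libraries did not pass either. The lowest change of the list was -0.79.

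The 18 maternally expressed genes had a median of -0.037, with 1 that fell, none that rose and 17 that did not pass. Grb10 encodes an adaptor that restrains insulin and growth factor signalling, and lies at chr11:11830502-11937423. It was at 5.99 and 6.13 FPKM in wild type and 1.71 and 1.96 in knockout, a 3.29-fold lower mean (-1.32 ± 0.16, adjusted p = 0.0355). Its adjusted p was 0.184 to 0.213 when a library was left out. The lowest value of the list belonged to Phlda2, a maternally expressed brake on placental growth, at 17.8 and 19.4 in wild type and 1.92 and 1.47 in knockout. This difference (-2.87 ± 0.42) exceeded that of Dcaf7 but did not pass (adjusted p = 0.0704). Its error includes the wild-type NPC libraries, where Phlda2 was at 0.453 and 3.09. A fit of the ESC libraries and the 11085 genes alone, chosen after seeing the data, gave an adjusted p of 0.00247. A fit of all 8 libraries over the 11085 genes gave 0.0472 for Phlda2, and the other settings gave up to 0.366. Its neighbour Cdkn1c, 40498 bases away and also maternally expressed, was at 1.04 and 1.30 against 0.219 and 0.512 (-0.68, adjusted p = 0.185). In the other direction, the noncoding RNA Meg3 stood at 22.3 and 27.9 against 40.1 and 37.7 (0.62) and Rian at 44.2 and 45.9 against 65.8 and 55.5 (0.42), and neither passed (adjusted p = 0.123 and 0.162).

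**Figure D3:**
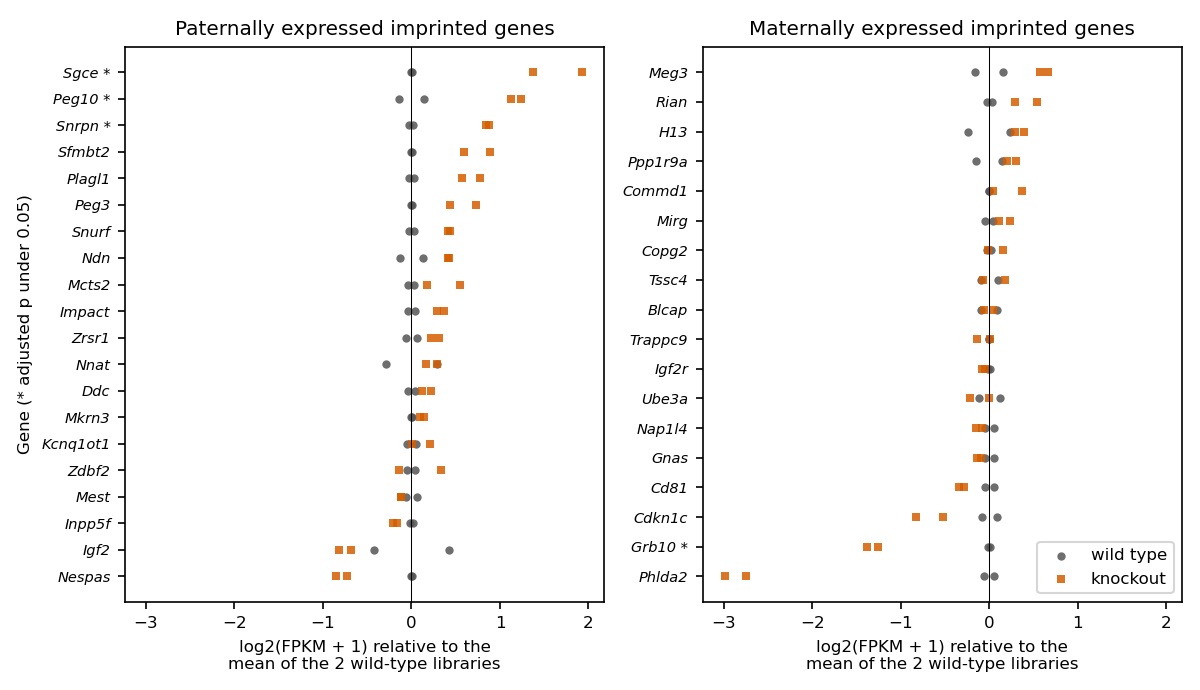
Level of the 20 paternally and 18 maternally expressed imprinted genes of the comparison in each ESC library, as log2(FPKM + 1) minus the mean of the 2 wild-type libraries. Grey circles are wild-type and orange squares knockout libraries, and a star marks an adjusted p under 0.05. In 13 of the 20 paternally expressed genes both squares lie to the right of both circles, as in 20.9% of all 11085 genes. Grb10 and Phlda2 lie farthest to the left.

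Zscan4 genes fell in the knockout. They are a cluster of near-identical zinc finger genes on chromosome 7 that are switched on in the embryo when it has 2 cells and, in ESC cultures, in the rare cells that pass through a state like that stage. All 3 called genes of the list for that state are Zscan4 paralogs. Zscan4f was at 4.49 and 3.93 FPKM in wild type and 1.18 and 1.21 in knockout, a 3.53-fold lower mean (-1.25 ± 0.11, adjusted p = 0.0106). Zscan4c was at 3.72 and 3.57 in wild type and 0.924 and 1.21 in knockout (-1.17 ± 0.12, adjusted p = 0.0193). Zscan4a was at 2.24 and 2.52 in wild type and 0.570 and 0.747 in knockout (-1.03 ± 0.11, adjusted p = 0.0280). The same order of levels was seen in Zscan4b and Zscan4d, which did not pass (-0.92 each, adjusted p = 0.141 and 0.123).

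The promoters of Zscan4c and Zscan4f are shown because these 2 called genes are near-identical copies. Over the 227 bases that both windows of 250 bases before the start share, 226 were identical (99.6%), and the capitals mark the base that differs. The windows are from RefSeq on GRCm38.p6, at chr7:11005495-11005744 and chr7:11397665-11397914, both on the + strand.
Zscan4c: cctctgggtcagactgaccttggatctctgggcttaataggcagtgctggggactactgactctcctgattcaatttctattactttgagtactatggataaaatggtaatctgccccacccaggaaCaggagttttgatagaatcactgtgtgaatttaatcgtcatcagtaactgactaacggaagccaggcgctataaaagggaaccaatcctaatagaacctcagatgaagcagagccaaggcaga
Zscan4f: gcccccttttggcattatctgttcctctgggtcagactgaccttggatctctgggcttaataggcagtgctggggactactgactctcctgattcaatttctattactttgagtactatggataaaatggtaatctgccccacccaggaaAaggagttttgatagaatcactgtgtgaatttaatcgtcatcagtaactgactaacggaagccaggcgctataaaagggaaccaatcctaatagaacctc
The other pairs among the promoters of Zscan4b, Zscan4c, Zscan4d and Zscan4f were 94.7% to 97.2% identical. Reads of such copies may be split between them in the authors' estimates, and Zscan4a had 12 to 51 implied fragments per ESC library. How the transcripts differ was not compared here, so the split of the reads among the copies is uncertain. None of the 3 calls held with a library left out, with adjusted p-values of 0.0621 to 0.105 for Zscan4f, 0.0744 to 0.146 for Zscan4c and 0.146 to 0.172 for Zscan4a. With a pseudocount of 0.1 none passed either, at 0.113 for Zscan4f, 0.131 for Zscan4c and 0.148 for Zscan4a, nor did any in a fit of the 4 ESC libraries alone.

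Other genes of the same state were mostly too low to enter. Of the list's 26 genes, 23 were in the tables and 8 were in the comparison, where 3 fell and 5 did not pass. Zscan4a, Zscan4d and Gm8300 reached 1 FPKM in wild-type libraries only, so the count is no support for a change of the list as a whole. Eif1a alone of the 8 reached 5 FPKM. Gm8300 was at 1.55 and 2.22 against 0.667 and 0.470 (-0.87, adjusted p = 0.0892) and Gm2016 at 3.49 and 3.33 against 2.15 and 1.51 (-0.65, adjusted p = 0.179). Eif1a, a translation factor gene active in all cells, did not differ detectably (-0.01, adjusted p = 0.98). Fewer cells in that state and less RNA per cell cannot be told apart in bulk libraries, and this holds for every gene described here.

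Among 18 germline and meiosis genes, 1 rose and none fell. Rec8, the cohesin subunit that holds sister chromatids together in meiosis, was at 2.77 and 2.50 FPKM in wild type and 7.59 and 6.96 in knockout, a 2.76-fold higher mean (1.19 ± 0.10, adjusted p = 0.0106). Its adjusted p was 0.0556 to 0.0852 when a library was left out. The remaining 17 genes did not pass, and the list's median was -0.265, on the other side of 0 from Rec8. Hormad1, which encodes a protein of the meiotic chromosome axis, was at 5.97 and 5.27 against 2.82 and 1.83 (-1.01, adjusted p = 0.0855). The germ cell helicase gene Ddx4 stood at 3.50 and 3.17 against 2.00 and 1.94 (-0.54, adjusted p = 0.162). Dazl, for a germ cell RNA-binding protein, had 3.75 and 4.38 against 2.30 and 2.44 (-0.58, adjusted p = 0.183), and the meiotic cohesin gene Stag3 had 6.71 and 5.79 against 3.93 and 2.90 (-0.72, adjusted p = 0.186). An unadjusted p under 0.05 was reached by 2 genes of the list in the higher and 8 in the lower direction. Over all 11085 genes the shares were 6.32% and 8.08%.

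Genes that define pluripotency did not pass in either direction. This was so for all 15 genes of the general list (median -0.055) and all 18 of the naive list (median -0.096). Pou5f1, which encodes OCT4, was at 838 and 787 FPKM in wild type and 841 and 859 in knockout (0.07 ± 0.16, adjusted p = 0.927). Nanog was at 421 and 433 against 406 and 415 (-0.06 ± 0.20, adjusted p = 0.958), and Sox2 at 92.9 and 83.3 against 77.5 in each knockout library (-0.18 ± 0.20, adjusted p = 0.761). The member of the general list with the lowest p was Dnmt3l, a cofactor of DNA methylation, at 110 and 107 against 154 and 164 (0.55, adjusted p = 0.162). All 4 libraries thus expressed these defining markers of stem cells at high levels.

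Otx2 was the exception among genes of the later, formative state. It encodes a homeodomain factor that acts when naive cells move towards the epiblast and later patterns the forebrain. Its FPKM was 1.81 and 1.14 in wild type and 5.09 and 6.26 in knockout, a 3.85-fold higher mean (1.44 ± 0.16, adjusted p = 0.0286). That error includes the NPC libraries, where Otx2 was undetected, so it is not the spread of the ESC duplicates alone. A limma fit of only the ESC libraries gave Otx2 an adjusted p of 0.332. Over the 11085 genes alone, chosen after seeing the data, that fit gave 0.108. With a library left out the adjusted p was 0.0556 to 0.206. Of the other 9 formative and primed genes in the comparison none passed, and the list's median was 0.076. Dnmt3b, the DNA methyltransferase gene of that state, was at 14.4 and 14.7 against 19.9 and 18.5 (0.38, adjusted p = 0.216), Zic2 at 10.7 and 10.8 against 7.81 and 6.64 (-0.52, adjusted p = 0.215) and Sox4 at 3.26 and 3.14 against 1.89 and 1.80 (-0.56, adjusted p = 0.107).

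A ligand gene was also among the 26. Inhbb, which encodes a subunit of the secreted ligand activin B, was at 4.03 and 4.34 in wild type and 1.74 and 1.35 in knockout (-1.03 ± 0.13, adjusted p = 0.0372, and 0.116 to 0.226 with a library left out). The error of Inhbb includes the NPC libraries, where it was at most 0.135 FPKM. In the fit of the ESC libraries and the 11085 genes alone its adjusted p was 0.128. None of 12 target genes of BMP and Nodal signalling passed (median -0.060), nor did any of 12 FGF-ERK targets (median -0.053) or 9 Wnt targets (median 0.038).

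Of 24 neural progenitor genes 10 entered the comparison and none passed (median -0.222). The same held for 10 of 21 genes of postmitotic neurons (median -0.147). Nes, the intermediate filament gene of neural progenitors, was at 2.24 and 1.78 against 2.76 and 2.86 (0.35, adjusted p = 0.295), and Nefm, for a neurofilament, at 2.79 and 1.96 against 0.953 and 0.805 (-0.83, adjusted p = 0.161). No gene passed among the few that entered from the lists of mesoderm (2 of 15), endoderm (5 of 17), trophoblast (5 of 15) and Hox genes (3 of 29). The list of feeder fibroblast markers, given with Gja1 and Lgals1, took nearly all of its summed FPKM from Vim (121 and 130 in wild type, 124 and 154 in knockout), which ESC also express.

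Gstp1 and Gstp2 were among the most abundant genes that fell. They are neighbouring paralogs on chromosome 19, 2376 bases apart in the tables, for pi-class glutathione transferases, enzymes that join glutathione to reactive compounds. Gstp2 was at 87.9 and 80.2 FPKM in wild type and 35.7 and 43.6 in knockout, a 2.12-fold lower mean (-1.07 ± 0.11, adjusted p = 0.0211). Gstp1 was at 78.5 and 73.0 in wild type and 33.6 and 43.3 in knockout, a 1.97-fold lower mean (-0.97 ± 0.12, adjusted p = 0.0353). In both genes knockout replicate 2 lay above replicate 1, and without replicate 2 the adjusted p was 0.0317 for Gstp2 and 0.0283 for Gstp1. Without another library it was up to 0.146 and 0.198.

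Their promoters are shown because the 2 genes moved together. Each window holds the 250 bases before the RefSeq start on the - strand of GRCm38.p6, at chr19:4037913-4038162 for Gstp1 and chr19:4042222-4042471 for Gstp2, and the capitals mark the letters TGAGTCA.
Gstp1: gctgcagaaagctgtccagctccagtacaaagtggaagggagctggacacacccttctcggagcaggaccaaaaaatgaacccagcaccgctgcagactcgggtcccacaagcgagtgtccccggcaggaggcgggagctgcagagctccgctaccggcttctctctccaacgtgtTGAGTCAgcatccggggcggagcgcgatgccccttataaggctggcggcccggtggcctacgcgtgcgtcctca
Gstp2: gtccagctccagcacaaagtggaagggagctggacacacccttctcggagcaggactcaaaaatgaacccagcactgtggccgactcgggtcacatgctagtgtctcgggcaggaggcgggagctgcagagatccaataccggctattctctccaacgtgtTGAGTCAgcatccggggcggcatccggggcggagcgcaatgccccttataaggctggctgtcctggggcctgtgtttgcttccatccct
An alignment matched 208 of 235 bases (88.5%, with 15 bases in gaps). The transcripts were not compared, and the split of reads between these paralogs is uncertain. The letters TGAGTCA, a form of the AP-1 motif, were searched on both strands. They occurred once in each window, at 74 bases before the start of Gstp1 and 89 before that of Gstp2, and in 4.46% of 32851 mouse promoter windows of this length.

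The wider list of glutathione genes held no further call. Of its 29 genes 2 fell, none rose and 27 did not pass, with a median of 0.083. Gsto1, an omega-class transferase gene, was at 10.4 and 13.8 against 4.96 and 7.0 (-0.91 ± 0.20, adjusted p = 0.183), and the glutathione peroxidase gene Gpx2 at 5.38 and 7.63 against 1.78 and 2.87 (-1.18 ± 0.29, adjusted p = 0.206). On the other side, Gstm6 was at 0.451 and 0.636 against 1.72 and 1.15 (0.65, adjusted p = 0.214). None of 22 genes of the oxidative stress response passed (median 0.063).

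Mt2 fell as well, and its neighbour Mt1 had a like difference that did not pass. Both encode metallothioneins, small proteins that bind zinc and copper. Mt2 was at 96.8 and 100.04 FPKM in wild type and 50.2 and 54.2 in knockout, a 1.89-fold lower mean (-0.90 ± 0.10, adjusted p = 0.0259, and 0.146 to 0.164 with a library left out). Mt1 was at 76.5 and 84.2 in wild type and 40.8 and 44.6 in knockout (-0.90 ± 0.15, adjusted p = 0.104). In neither gene did the groups overlap. Among the 5 other genes within 200 kb of Mt2 none passed, for example Bbs2 (-0.29) and Nup93 (0.06).

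Promoter windows of the 2 genes are shown with the metal response motifs they hold, and the capitals mark the letters TGCACNC or TGCGCNC on either strand. The windows are the 250 bases before the RefSeq start on the + strand of GRCm38.p6, at chr8:94178839-94179088 for Mt1 and chr8:94172368-94172617 for Mt2.
Mt1: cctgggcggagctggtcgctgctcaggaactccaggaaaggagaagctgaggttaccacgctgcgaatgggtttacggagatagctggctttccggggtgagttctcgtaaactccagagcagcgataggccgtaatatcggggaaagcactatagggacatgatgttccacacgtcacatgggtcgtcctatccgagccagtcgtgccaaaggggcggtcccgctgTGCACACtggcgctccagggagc
Mt2: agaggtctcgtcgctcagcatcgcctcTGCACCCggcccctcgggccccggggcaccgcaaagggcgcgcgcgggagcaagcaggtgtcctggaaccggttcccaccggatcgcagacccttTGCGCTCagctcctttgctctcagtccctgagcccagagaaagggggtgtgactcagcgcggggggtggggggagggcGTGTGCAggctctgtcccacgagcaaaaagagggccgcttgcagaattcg
In its window Mt1 had 1 match, 23 bases before the start, and Mt2 had 3, at 223, 128 and 50 bases. Bases outside the windows, such as those after the RefSeq start, were not searched. The counts therefore do not rank the 2 genes by their motifs. At least 1 match was found in 21.4% and at least 3 in 1.26% of the 32851 promoter windows. Of the 15 genes of the list of metallothioneins and zinc transporters, 1 fell and 14 did not pass, with a median of 0.001. The zinc importer gene Slc39a4 was at 6.55 and 6.91 against 10.3 and 10.5 (0.56, adjusted p = 0.196), and Mtf1, which encodes the zinc sensor that binds metal response motifs, at 2.79 and 2.72 against 2.28 and 2.45 (-0.16, adjusted p = 0.588).

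Slc25a4 was the most abundant longer gene that changed. It encodes ANT1, a carrier of the inner mitochondrial membrane that exchanges ADP for ATP. Its FPKM was 144 and 159 in wild type and 293 and 308 in knockout, a 1.98-fold higher mean (0.99 ± 0.07, adjusted p = 0.0026). With a library left out the adjusted p was 0.0146 to 0.0317. It rested on 1204 to 3183 implied fragments per library. Of 34 genes for mitochondrial carriers and the energy shuttle, 1 rose, none fell and 33 did not pass. Their median was 0.081, and 9 had an unadjusted p under 0.05 in the higher and 1 in the lower direction. Of all 11085 genes, 6.32% and 8.08% had such a p. Slc25a10, the dicarboxylate carrier gene, was at 2.70 and 2.44 against 4.07 and 3.87 (0.48, adjusted p = 0.186), and the outer membrane channel gene Vdac1 at 353 and 347 against 397 and 394 (0.18, adjusted p = 0.342).

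Oat, for the mitochondrial enzyme ornithine aminotransferase, rose from 44.3 and 48.1 to 67.1 and 67.6 (0.54 ± 0.06, adjusted p = 0.0346, and 0.116 to 0.218 with a library left out). Other metabolic lists had no called gene. The 29 genes of glycolysis and hypoxia had a median of 0.135, the 73 of oxidative phosphorylation 0.109 and the 21 of cholesterol synthesis 0.008. The 84 cytosolic ribosomal protein genes had a median of 0.184, with 0.098 in knockout replicate 1 and 0.261 in replicate 2. Of these, 20 had an unadjusted p under 0.05 in the higher and 1 in the lower direction, beside 6.32% and 8.08% of all 11085 genes. The 774 genes at 100 FPKM or more had a median of 0.053, so abundant genes as a class were slightly higher. The part of this shift in the change of Slc25a4 was not tested.

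Gja1 encodes connexin 43, the main gap junction protein of ESC, and rose from 28.4 and 31.8 FPKM to 51.1 and 48.8 (0.71 ± 0.08, adjusted p = 0.0286). It was the 1 called gene of 20 for gap junctions and adhesion, a list with a median of -0.151, on the other side of 0. Lgals1, for the secreted lectin galectin-1, rose from 53.9 and 53.2 to 80.1 and 85.1 (0.62 ± 0.06, adjusted p = 0.0214). Both genes are also abundant in fibroblasts. Of 15 feeder fibroblast markers, 2 were in the comparison, Lum, Postn and S100a4 were listed at 0 and Col1a1 was at most 0.124. The summed FPKM of the markers was 124 and 132 in wild type and 127 and 157 in knockout, and their part in the result was not tested. With a library left out the adjusted p was 0.0883 to 0.172 for Gja1 and 0.0833 to 0.156 for Lgals1.

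Pik3r3, a regulatory subunit gene of PI3 kinase, rose from 6.76 and 6.70 to 11.1 and 11.3 (0.66 ± 0.08, adjusted p = 0.0353). B9d1 encodes a protein of the ciliary transition zone, the gate at the base of the primary cilium. It rose from 15.3 and 13.3 to 23.7 and 25.6 (0.75 ± 0.09, adjusted p = 0.0346) and was the 1 called gene of 16 on its list (median 0.170). Cetn3, for a centrin of the centrosome, fell from 56.4 and 54.1 to 37.4 and 35.5 (-0.59 ± 0.07, adjusted p = 0.0377), 1 of 13 centrosome genes (median -0.018). Leaving out a library gave an adjusted p of 0.172 to 0.218 for Pik3r3, 0.105 to 0.219 for B9d1 and 0.169 to 0.230 for Cetn3.

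Calb2, which encodes the calcium buffer calretinin of neurons, fell in the knockout. It was at 9.40 and 8.93 FPKM in wild type and 2.73 and 2.77 in knockout, a 3.34-fold lower mean (-1.44 ± 0.17, adjusted p = 0.0346). None of the other 15 EF-hand genes in the comparison passed (median of all 16: -0.015). Klhl22, an adaptor gene of the CUL3 ubiquitin ligase, fell from 8.98 and 8.83 to 4.89 and 4.04 (-0.86 ± 0.11, adjusted p = 0.0460), the 1 called gene of 24 adaptors (median -0.098). Pnma5, an X-linked gene of a family derived from retrotransposons, fell from 3.20 and 3.28 to 1.34 and 1.27 (-0.88 ± 0.10, adjusted p = 0.0346). Psors1c2 fell from 3.18 and 3.46 to 1.02 and 1.36 (-0.98 ± 0.13, adjusted p = 0.0460) and rested on 7 to 22 implied fragments per library. The errors include the NPC libraries, where Pnma5 was at most 0.116 FPKM and Psors1c2 was undetected in wild type. The fit of the ESC libraries and the 11085 genes alone passed Calb2 (adjusted p = 0.0194). It did not pass Klhl22 (0.128), Pnma5 (0.141) or Psors1c2 (0.144). Over these 4 genes and the 4 fits with a library left out, the adjusted p was 0.0901 (Klhl22) to 0.250 (Psors1c2).

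A further 308 longer genes did not pass but had an unadjusted p under 0.01, an FPKM of at least 5 in the higher group and groups that did not overlap, 134 higher and 174 lower in knockout. Histone genes and predicted genes, recognised by symbol, were left out of these 308. The 10 with the largest difference above wild type and 9 of the 10 below it are given as values. Highest among those above wild type was Ucp2, a mitochondrial carrier gene, at 25.2 and 15.8 in wild type and 50.6 and 53.3 in knockout (1.34 ± 0.21, adjusted p = 0.0855). Cdkn3, Cdc42ep5, Trappc6a, Ube2l6, Bhmt, Uap1l1, Snhg14 and Dynlt1f had differences of 0.81 to 1.24. Btg2, an antiproliferative gene and p53 target, was at 9.72 and 10.2 against 22.3 and 20.3 (1.02 ± 0.14, adjusted p = 0.0521), while none of 22 p53 target genes passed (median 0.029). Below wild type, Phlda2, Gpx2, Mt1, Hormad1 and Gsto1 are described above. The others were Nxt2 (12 and 13.1 against 5.30 and 5.34), Magohb (6.46 and 8.41 against 1.99 and 4.49), Smarcd3 (8.49 and 7.27 against 3.12 and 3.89) and Palld (11.1 and 10.7 against 6.20 and 5.32). Smarcd3 encodes a subunit of the BAF chromatin remodelling complex. Their adjusted p-values were 0.0665 (Palld) to 0.249 (Magohb). The fit of all 8 libraries over the 11085 genes, which passed Phlda2, also passed Btg2 (adjusted p = 0.0366), Dynlt1f (0.0372), Palld (0.0472) and Snhg14 (0.0496). The fit of the ESC libraries and those genes alone passed Btg2 (0.0351), Nxt2 (0.0366) and Mt1 (0.0398).

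The 7 called small RNA genes rested on almost no reads. Mir1982, Mir6385, Mir6958, Snord53 and Snord65 were listed at 0 in both wild-type libraries, and Snora61 and Snora62 at 0 in both knockout libraries. The libraries above 0 held 1 to 5 implied fragments of each. Poly(A) selection does not capture these RNAs as such, and the short length of the genes turns a fragment into a high FPKM, so that Snord65 stood at 3485 and 13039 in knockout. No fold is given for them.

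Genes of chromosome 11, which carries Dcaf7, lay slightly higher in the knockout as a group. Leaving out small RNA genes, the median change of the 903 genes on this chromosome was 0.046, against -0.020 for the 10072 genes elsewhere, a difference of 0.066 on the log2 scale. The difference was 0.068 and 0.064 in the separate knockout libraries and at most 0.002 in size in either wild-type library. Of the 903 genes 61.7% were above 0, and 11.1% had an unadjusted p under 0.05 in the higher and 4.87% in the lower direction. On other chromosomes the share in the higher direction was 4.23% (chromosome 5) to 8.15% (chromosome 7). By stretches of 20 Mb along chromosome 11 the median was -0.006 to 0.174, and 6 of 7 stretches were above 0. The genes that passed on this chromosome, Dcaf7, Grb10 and B9d1, went in both directions. In NPC, which share no library with these, the median was 0.223 on chromosome 11 and 0.047 elsewhere, a difference of 0.177, and 76.6% of the 903 genes were above 0. Relative to wild-type ESC, the chromosome stood 0.259 and 0.275 above the others in the knockout NPC libraries and 0.091 and 0.121 above them in the wild-type NPC libraries. On the X chromosome the median of 369 genes was -0.055 in ESC, and 14.6% had an unadjusted p under 0.05 in the lower direction. The share over all 11085 genes was 8.08%. These values are descriptions, as genes are not replicates, and their source was not tested.

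**Figure D4:**
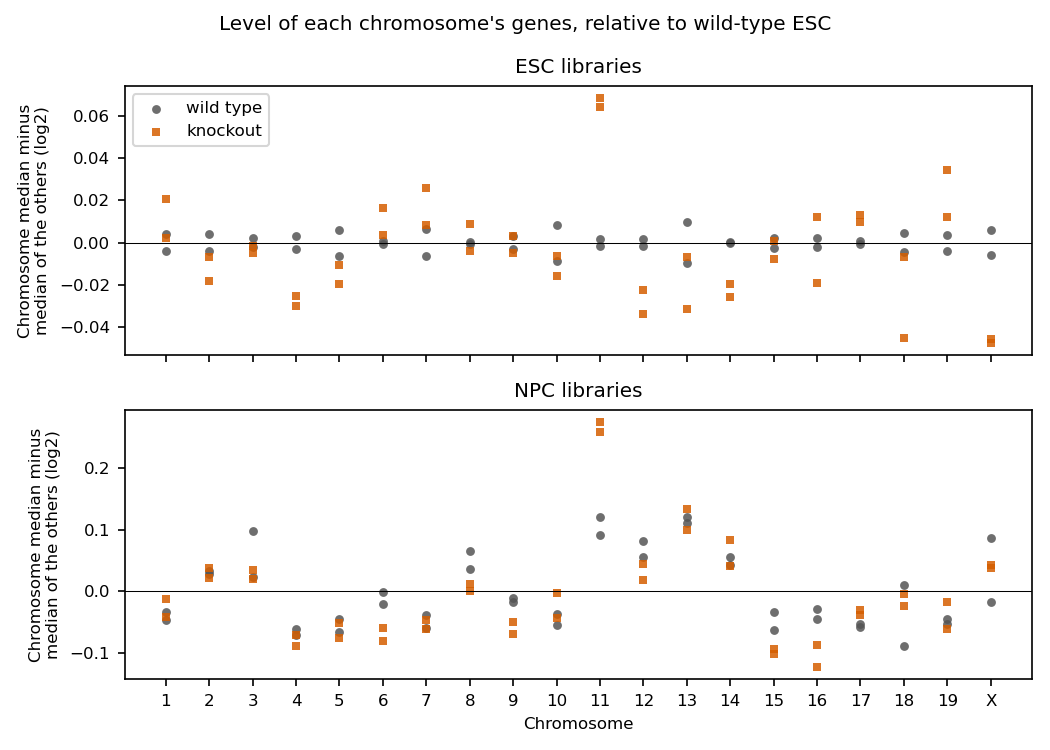
For each chromosome, the median level of its genes minus the median of the genes on all other chromosomes, in each library, as log2(FPKM + 1) relative to the mean of the wild-type ESC libraries. Grey circles are wild-type and orange squares knockout libraries, with ESC above and NPC below on a wider axis. Chromosome 11 holds the highest pair of squares in both panels, 0.068 and 0.064 in ESC and 0.259 and 0.275 in NPC.

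Whether the 26 longer genes also differed after differentiation was read from the NPC libraries, where 23.0% of the 11085 genes were called, 14% higher and 8.95% lower. Of the 26, 5 passed in NPC in the same direction, 1 in the opposite direction and 20 did not pass. At least 1 FPKM in at least 2 NPC libraries was reached by 18 of them. Dcaf7 was at 27.2 and 29.6 in wild-type and 8.36 and 8.99 in knockout NPC (-1.60 ± 0.12, adjusted p = 1.3e-04). Grb10 was at 25.4 and 22.4 against 2.15 and 1.33 (-3.20 ± 0.16, adjusted p = 3.5e-05), and Rec8 at 12 and 10.3 against 67.5 and 69.4 (2.52 ± 0.10, adjusted p = 2.0e-05). In both genes the difference was larger in NPC than in ESC, by -1.88 and 1.33 (adjusted p of the difference = 0.0025 and 0.0016). Peg10 was at 169 and 157 against 381 and 352 (1.16 ± 0.11, adjusted p = 3.3e-04), close to its change in ESC, with a difference of -0.02 between the stages (adjusted p = 0.945). Pik3r3 was at 21.5 and 19.5 against 27.3 and 26.9 (0.39 ± 0.08, adjusted p = 0.0119).

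Psors1c2 was the gene with the opposite direction. It was listed at 0 in each wild-type NPC library, and the knockout NPC libraries had 0.943 and 0.756. The other 20 genes did not pass in NPC. Slc25a4 was at 334 and 336 in wild-type and 336 and 334 in knockout NPC, and Snrpn at 35.8 and 32.6 against 31.0 and 33.6 (-0.08 ± 0.08, adjusted p = 0.483). Sgce was at 25.6 and 26.5 against 33.9 and 35.3 (0.39 ± 0.17, adjusted p = 0.134). Otx2 was listed at 0 in all 4 NPC libraries, and the 3 Zscan4 genes were under 0.06 FPKM. Gstp1 was at 32.4 and 32.9 against 43.1 and 39.5 (0.33, adjusted p = 0.082) and Gstp2 at 26.3 and 24.0 against 33.2 and 31.2 (0.34, adjusted p = 0.055), both on the other side of 0 than in ESC. The difference between the stages passed for 23 of the 26 genes, beside 12.7% of all members. That contrast contains the ESC values by which these genes were called, so the count is given without further reading.

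**Figure D5:**
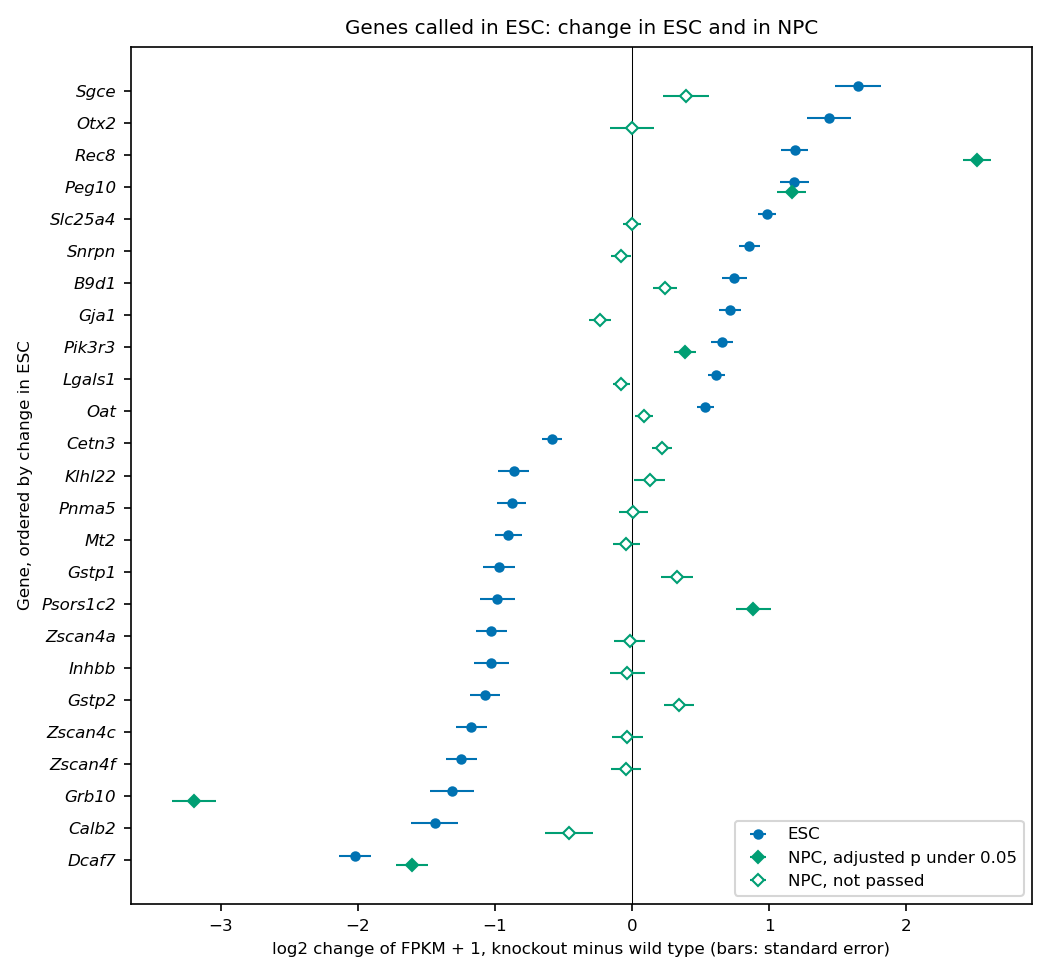
Log2 change of FPKM + 1 (knockout minus wild type) in ESC (blue circles) and in NPC (green diamonds, filled where the adjusted p was under 0.05) for 25 of the 26 longer genes called in ESC, with standard errors from limma as bars. Grb10, Dcaf7, Pik3r3, Peg10 and Rec8 have filled diamonds on the same side of 0 as their circle, and Psors1c2 on the opposite side.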

How the data were processed

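Poly(A) RNA was sequenced with a directional kit in 8 libraries, 2 in each of 4 groups, per the labels' protocols. TopHat2 2.1.1, Cufflinks 2.2.1 and the build mm9 are named in the submitters' processing notes. The deposited tables hold FPKM for each gene, the bounds of its 95% confidence interval, and no counts. Whether counting used strand is not given in the sources used here. Each table had 24854 entries with 24318 symbols. Entries of 285 repeated symbols were summed, and 12 symbols with a failed estimate were left out. Implied fragment numbers came from the upper confidence bound and are estimates. Their formula holds for genes without repeated entries or alternative start sites, and was applied to all genes. Among genes of that kind with few fragments, 68.9% to 71.7% of the values in the ESC libraries lay within 0.05 of a whole number. By chance 10% would.

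The 13318 genes that reached 1 FPKM in 2 or more of the 8 libraries were put on the log2(FPKM + 1) scale. They were fitted in R 4.3.3 by limma 3.58.1 with a mean for each of the 4 groups and a trend of variance on level, which leaves 4 residual degrees of freedom. Tests were two-sided, with Benjamini-Hochberg adjustment over the 13318 genes. All 11085 genes of the ESC comparison are among them. The fit was tested on simulated data. The alternatives were a pseudocount of 0.1, other filters, scalings and fits, and leaving out each ESC library.

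The rule names every gene that passed other than small RNA genes, the 10 largest differences in each direction that did not pass (criteria in the text), up to 4 genes per list, and Dcaf7, Auts2, Pcgf3, Pcgf5, Rnf2, Pou5f1, Nanog and Sox2. Of 753 genes in 36 lists 747 matched by symbol. The members and lists were chosen with earlier results of these data known. A few genes that the rule gives are not reported here. Some genes are given outside this rule as neighbours, markers or further members of a list.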

Additional observations from a re-analysis of the deposited data

Results flagged for a closer look

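The knockout effect of 32 named genes differed between NPC and ESC by limma's test of the difference (adjusted p under 0.05). Values are the log2 effect in NPC minus that in ESC, so lower and higher here refer to the effect and not to the level. The genes called in ESC were picked on values that enter this difference, so their number is no evidence of its own. The same holds for Trappc6a, Dynlt1f, Hormad1, Palld, Nxt2, Mt1, Smarcd3 and Gpx2, which were picked on a large ESC difference that did not pass. Otx2 and Hormad1 were listed at 0 in all 4 NPC libraries. There the 3 Zscan4 genes reached at most 0.051 FPKM, Inhbb 0.135 and Pnma5 0.116. For these genes the difference is essentially the ESC change with its sign reversed. Lower in NPC than in ESC were Sox2 (-3.33), Grb10 (-1.88), Otx2 (-1.44), Sgce (-1.26), Trappc6a (-1.09), Slc25a4 (-0.99), Gja1 (-0.95), Snrpn (-0.94), Auts2 (-0.90), Lgals1 (-0.69), Dynlt1f (-0.61), B9d1 (-0.51) and Oat (-0.45). Higher in NPC were Cetn3 (0.80), Mt2 (0.86), Pnma5 (0.89), Calb2 (0.98), Klhl22 (0.99), Inhbb (0.99), Hormad1 (1.01), Zscan4a (1.01), Zscan4c (1.14), Palld (1.15), Nxt2 (1.15), Zscan4f (1.20), Mt1 (1.30), Gstp1 (1.30), Rec8 (1.33), Gstp2 (1.42), Smarcd3 (1.49), Psors1c2 (1.87) and Gpx2 (2.74).

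Sox2 and Auts2 were not picked on their ESC difference. Sox2 was at 30.4 and 29.9 FPKM in wild-type NPC and 1.15 and 2.47 in knockout NPC, and Auts2 at 14.1 and 14.7 against 7.87 and 8.20. Gpx2 and Smarcd3, which were picked on it, lay below wild type in ESC and above it in NPC, where Gpx2 was at 2.42 and 1.08 against 6.13 and 7.65.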

How the results depend on the processing

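In place of the 33 genes called over all libraries, 10 to 16 were called with an ESC library left out, 3 when only the 4 ESC libraries were fitted (2 residual degrees of freedom), and 25 when these were fitted over the 11085 genes alone, an alternative chosen after seeing the data. None of the 3 and 14 of the 25 were among the 33. The other counts were 25 (23 shared) with a pseudocount of 0.1, 46 (17 shared) without a filter, 28 with a minimum of 5 FPKM, 40 with the filter on ESC libraries, 35 with median-ratio scaling, 25 with quantile normalization, 33 with the highest entry per symbol and 25 without the variance trend. The lists with a called gene, 13 in all, numbered 8 with a pseudocount of 0.1, 4 without a filter, 0 with only the ESC libraries, 6 with only these and their own filter, 8 without the variance trend and 2 to 3 with a library left out. Of genes called in ESC, 5 passed in NPC in the same direction, 3 with quantile normalization and 2 to 3 with a library left out. The difference between stages passed for 23, for 15 with a pseudocount of 0.1, 35 without a filter and 1 to 6 with a library left out. The called longer genes named in the text kept their direction under these settings, while Pou5f1, which did not pass, ran from -0.09 to 0.11. With a pseudocount of 0.1, Calb2 (adjusted p = 0.196), Grb10 (0.0669), Inhbb (0.222), Klhl22 (0.0625), Otx2 (0.117), Pnma5 (0.170), Psors1c2 (0.152) and the 3 Zscan4 genes no longer passed. The cause of these shifts was not tested, apart from the fewer libraries or genes each fit had by construction. A left-out library leaves 1 sample in its group, which is assumed to vary like the others.

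With the replicate number as a block, 15 genes were called (14 shared), 5 lists had a called gene, 3 genes passed in NPC in the same direction and 7 in the difference between stages. The deviations of same-numbered libraries correlated at 0.025 between wild-type and knockout ESC and at -0.054 to 0.179 over all pairs of groups. With only duplicates in each group, these values cannot decide whether same-numbered libraries were handled together, and the labels do not say.

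The chromosome 11 difference of 0.066 was 0.076 with a pseudocount of 0.1 and 0.064 to 0.074 with a library left out, both chosen after seeing the data. Genes at low FPKM rest on few fragments.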

Other observations

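Beyond the gene groups above, a gene of retinoid handling lay apart in ESC without passing. Crabp1, for a cytoplasmic retinoic acid carrier, was at 14.4 and 15.3 FPKM in wild type and 7.47 and 9.46 in knockout (-0.75, adjusted p = 0.242). None of the 10 genes of the retinoic acid response in the comparison passed, and their median was 0.064. Among 35 genes of the cell cycle and replication none passed (median -0.006), with Ccnd1, for cyclin D1, at 39.6 and 38.7 against 53.3 and 52.3 (0.42, adjusted p = 0.22).

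Of 21 genes of DNA methylation and demethylation none passed (median -0.092). Mbd1, for a reader of methylated DNA, was at 2.94 and 3.91 against 1.36 and 1.62 (-0.82, adjusted p = 0.16). None of 36 proteasome genes passed (median 0.027).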
